A study of Mus musculus with 6 samples.

Results

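The protocadherins are the largest subgroup of the cadherin superfamily of cell surface proteins. Rows whose gene name starts with Pcdh were taken from the deposited expression table, which gave 35 of 16832 genes. Rows were taken by name and not by value, though earlier results of these data were known when the members were chosen. By name, 1 row belonged to the alpha cluster, 3 to the beta cluster and 20 to the gamma cluster, and 11 were non-clustered genes. The GENCODE M21 annotation of mouse build mm10 lists 14 alpha, 22 beta, 22 gamma and 12 non-clustered genes, so 35 annotated genes, among them 13 alpha and 19 beta genes, Pcdhga10, Pcdhgc4 and Pcdh20, were not analysed here. No gene of the table had a mean normalized count under 6.10, and all 35 members had a mean of at least 10, the limit for testing.

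RNA was sequenced from mouse tissue of the second heart field, dissected at embryonic day 9.5. This mesoderm lies behind the heart tube and feeds cells into both of its ends. Gain-of-function (GoF) samples carried the Hoxb1GOF allele together with Mef2c-Cre, and controls carried Mef2c-Cre, so the Cre transgene was common to both groups. Mef2c-Cre is named for regulatory sequence of Mef2c, which is used to drive the recombinase in second heart field cells and their descendants, and the dissected region also holds cells outside that lineage. The series lists 3 samples in each group, and values were at hand for control replicates 2 and 3 and GoF replicates 1, 2 and 3. Whether replicates came from separate or pooled embryos is not stated, so each p-value measures the spread between these libraries, which may be technical.

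Clustered protocadherins are encoded in tandem arrays on chromosome 18. Each alpha or gamma gene has its own promoter and a large variable exon, which carries the ectodomain and is spliced to constant exons at the end of its array, while beta genes are single exons. The proteins pair with identical partners on neighbouring cells, a recognition system best known from neurons. Non-clustered protocadherins each have a locus of their own. Their delta subfamilies act in cell sorting and movement, and Pcdh8, also called paraxial protocadherin, is a classical gene of the presomitic mesoderm.

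Each library held between 34260116 and 44384354 reads, of which mitochondrial genes took 50.7% and 44.4% in the controls and between 35.7% and 37.4% in GoF, and the normalized counts reported here are reads divided by 1 factor per library. Hoxb1, the targeted gene, stood at 751.6 and 610.2 normalized counts in the 2 controls, compared with 1021.8 ± 19.1 (SD, n = 3) in GoF, which made it 1.51-fold higher (log2 fold change 0.59, SE 0.12, limma adjusted p = 0.0147). That call was lost without GoF replicate 1 and after correction for GC content, described below (limma adjusted p = 0.0601 and 0.251). Of 12 markers of the second heart field, 11 were in the table and Fgf8 was not analysed here. Of the 11, 3 were called higher, Hoxb1 among them, and 1 lower, and they summed to 12441 and 10104 normalized counts in the controls and to between 12698 and 13600 in GoF. No marker of any cell type was at 0 in any library. The 12 neural markers in the table (of 14) summed to 12267 and 12630 normalized counts in the controls and to between 10218 and 10716 in GoF, and the 9 somite markers (of 10) to 5493, 3512 and between 4200 and 4403 in the same order. The 9 endothelial markers (of 10) summed to 11448, 9476 and between 8718 and 9617, the 8 neural crest markers to 5243, 6234 and between 6405 and 6775, and the 9 endoderm markers to 7359, 5447 and between 7623 and 7992. The 7 cardiomyocyte markers (of 8) summed to 281983, 389826 and between 183005 and 232098, and the 6 blood markers to 11065, 6877 and between 13785 and 17628. Some sums rest largely on 1 gene. Without Ttn the other 6 cardiomyocyte markers summed to 52916, 61738 and between 61513 and 62138, and without Erg the other 8 endothelial markers to 6593, 5931 and between 7088 and 7273. Without Cldn6 the other 8 endoderm markers came to 5384, 3850 and between 4739 and 4985, where the groups overlapped. Limma called 1 neural, 1 neural crest, 2 endothelial, 1 somite, 4 endoderm, 2 cardiomyocyte and 2 blood markers higher, and 2 neural, 2 endothelial, 1 somite and 1 cardiomyocyte marker lower, which makes 13 higher and 6 lower. After the GC correction 1 of these markers was called higher, of cardiomyocytes, and 8 lower, which were 3 neural, 1 endothelial, 1 somite, 2 cardiomyocyte and 1 blood marker. Of the second heart field markers 1 was then higher and 1 lower. Among all genes tested, the shares called higher and lower were 12.2% and 10.9% before that correction and 3.11% and 3.33% after it. The part of the markers in the values below was not tested. In bulk tissue, fewer cells of a type and less RNA per cell cannot be told apart. GoF replicate 1 lay near the midpoint of GoF replicates 2 and 3. Over 9082 genes of mean 200 or more, its log2 distance from that midpoint had an SD that was 0.279 of that between replicates 2 and 3, where exchangeable libraries give 0.866, so the calls are also given without it.

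The first question was which protocadherins differ between the GoF and the control libraries. Of the 35 members, 2 rose, Pcdhga2 and Pcdhgc3, and 5 fell, Pcdhga4, Pcdhgb4, Pcdhga12, Pcdh7 and Pcdh11x (limma on log2(normalized count + 1), Benjamini-Hochberg adjusted p under 0.05 over all genes). Among all 16794 genes tested, 12.2% were called higher and 10.9% lower, together 23.2%, so 7 of 35 is close to the background share. The median log2 fold change was -0.25 for the members and -0.01 for all genes tested, and 26 of the 35 members were below 0. In 12 members every GoF library lay below both controls and in 3 every GoF library lay above them. Over all genes tested these shares were 27.6% and 27.3%. In the authors' deposited table the same 2 members were higher and the same 5 lower at an adjusted p under 0.05, and DESeq2 and edgeR on the recovered reads also called these 7. DESeq2 called 13.1% of all genes higher and 13.3% lower, and edgeR 12.4% and 10.1%, together 26.5% and 22.5%. Without GoF replicate 1, limma called 0 of the 35 (5 at an unadjusted p under 0.05), where 4.04% of all genes were called higher and 3.3% lower, together 7.34%. An unadjusted p under 0.05 was reached by 4310 of the 16794 genes in that fit. The adjusted p of the 7 genes then ran from 0.0673 for Pcdh11x to 0.205 for Pcdhgc3. Limma also called 0 without GoF replicate 2 (9 at an unadjusted p under 0.05) and Pcdh11x alone without GoF replicate 3. The number of all genes called also varied between the fits with 1 library left out, over the range given in the last section. A loss of calls particular to the protocadherins cannot be told from a general one here. Without control replicate 2 the calls for Pcdhgc3 and Pcdhgb4 were lost. Without control replicate 3 those for Pcdhga2, Pcdhga4, Pcdhga12 and Pcdh11x were lost, while Pcdh1 was called higher and Pcdhga1, Pcdhga9 and Pcdh17 lower.

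The gamma cluster supplied most of the clustered reads. It spans 37661793 to 37841873 on chromosome 18 of mm10, and its summed normalized count was 4278 and 3986 in the controls against 3634, 3721 and 3644 in GoF replicates 1, 2 and 3. Every GoF sum was therefore below both control sums, with a ratio of group means of 0.887. The A-type genes summed to 2252 and 2019 in the controls against 1813 ± 22.4 (SD, n = 3) in GoF, and the B-type genes to 1589 and 1463 against 1259 ± 24.9 (SD, n = 3). The C-type sum, of Pcdhgc3 and Pcdhgc5, was 437.3 and 504.1 in the controls against 594.1 ± 36.7 (SD, n = 3) in GoF. That difference lay in Pcdhgc3, since Pcdhgc5 had 124 and 130 in the controls against 108, 146 and 107 in GoF, with overlapping groups (log2 fold change -0.09, SE 0.23, limma adjusted p = 0.787). These sums are descriptions, with no test.

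Of the 20 gamma genes, 2 rose, 3 fell and 15 did not pass, with a median log2 fold change of -0.20. The shares over all genes tested were 12.2% called higher and 10.9% lower, with a median of -0.01, so these counts are close to the background. Pcdhga2 had 69.2 and 42.4 normalized counts in control replicates 2 and 3 and 104, 124 and 128 in GoF replicates 1, 2 and 3. All GoF libraries were above both controls, at 2.15 times their level (log2 fold change 1.11, SE 0.28, limma adjusted p = 0.0288; 0.0149 to 0.308 over 18 alternatives). Pcdhgc3, whose protein is known to bind the Wnt pathway scaffold Axin1, had 313 and 374 in the controls against 476, 489 and 457 in GoF. It rose 1.38-fold (log2 fold change 0.47, SE 0.14, limma adjusted p = 0.0461; 0.0187 to 0.968 over 18 alternatives). Pcdhga2 and Pcdhgc3 stand near opposite ends of the array, with starts at 37668953 and 37806364, and 16 of the measured gamma genes start between them.

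The 3 gamma genes that fell lie between those 2. Pcdhga4 had 62.1 and 83.6 normalized counts in the controls against 26.7, 29.9 and 30.7 in GoF, the lowest fold of the cluster. Its GoF level was 0.411 of the control level (log2 fold change -1.28, SE 0.32, limma adjusted p = 0.0264; 0.0187 to 0.191 over 17 alternatives). Pcdhgb4 fell from 468 and 403 to 298, 321 and 303 (log2 fold change -0.50, SE 0.14, limma adjusted p = 0.0414; 0.0226 to 0.232). Pcdhga12, the gamma gene with the highest mean count, fell from 575 and 663 to 447, 368 and 452 (log2 fold change -0.55, SE 0.15, limma adjusted p = 0.0334; 0.0117 to 0.0982). In each of these 3 genes the GoF libraries lay below both controls without overlap. The gap between the controls was 0.42 on the log2 scale for Pcdhga4, 0.21 for Pcdhgb4 and 0.21 for Pcdhga12, each smaller than the fitted change.

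**Figure D1:**
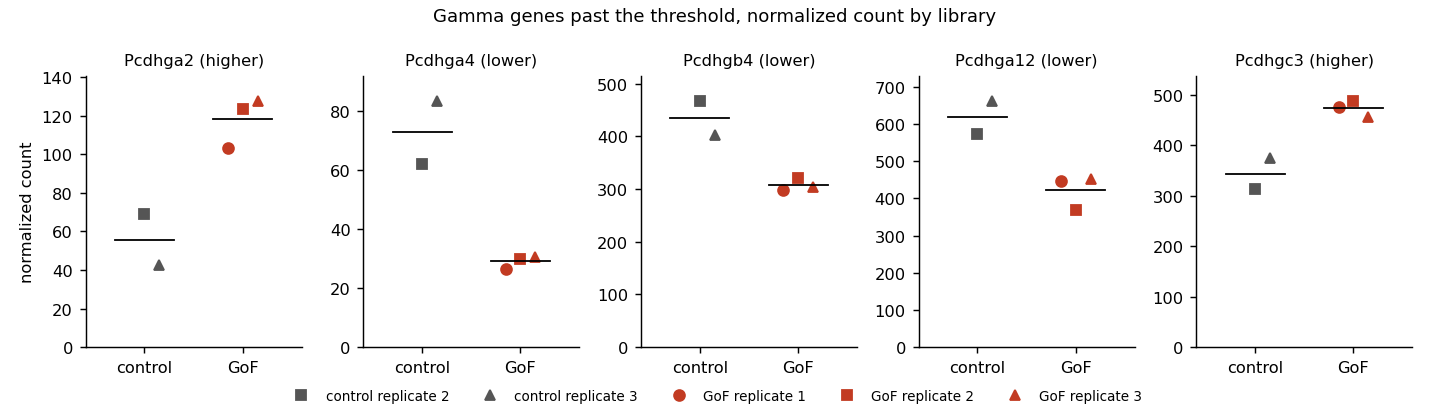
Normalized count (y axis, from 0) of the 5 gamma protocadherins past the threshold in the control and GoF libraries, 1 panel per gene; each point is 1 library, black lines are group means, and the title gives the direction of the call. The GoF libraries lie above both controls for Pcdhga2 and Pcdhgc3 and below both for Pcdhga4, Pcdhgb4 and Pcdhga12.

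Among the 15 gamma genes that did not pass, log2 fold changes ran from -0.69 for Pcdhga1 to 0.29 for Pcdhgb6. The controls alone differed widely in some of them. Pcdhga1 had 86.8 counts in control replicate 2 and 32.4 in control replicate 3, against 39.0, 28.3 and 31.6 in GoF, and Pcdhga9 had 326 and 186 against 165, 181 and 155. Pcdhgb1 had 435 and 437 in the controls against 374, 402 and 327 in GoF, all below both controls, and did not pass (limma adjusted p = 0.235; 0.0523 to 0.514 over 18 alternatives). Pcdhga3 had 231 and 216 counts in the controls against 228, 249 and 252 in GoF, and the groups overlapped. Pcdhgb8, a polymorphic pseudogene in the annotation, had 115 and 129 counts against 87.2, 74.4 and 89.8 (limma adjusted p = 0.12). In 7 of the 20 gamma genes all GoF libraries were below both controls, where 27.6% of all genes tested did the same, and in 11 the groups overlapped.

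Because the constant exons belong to every gamma gene, only part of each gene can be counted without doubt. In the annotation, between 1.256 kb (Pcdhga11) and 4.614 kb (Pcdhgb5) of exon per measured gamma gene was not shared with any other gene, and levels are given per kilobase of that sequence. On this scale Pcdhgc3 had the highest control mean of the cluster, 189 normalized counts per kb, followed by Pcdhgb1 at 166, Pcdhga12 at 150 and Pcdhgb4 at 121. Pcdhga1, Pcdhga6 and Pcdhga2 were lowest at 21.0, 21.4 and 21.7. In GoF, Pcdhgc3 was again highest at 260 and Pcdhgb1 next at 140, Pcdhga2 stood at 46.0 and Pcdhga1 was lowest at 11.6. How reads on shared exons were assigned is not given in the sources used here. Of the 5499 exonic bases of Pcdhgc3, 2187 are shared with genes other than protocadherins. The same number is 628 for Pcdhgb1 and Pcdhgb4 and 1050 for Pcdhga12. If reads on such bases were counted, the level of Pcdhgc3 per kb is too high, and its rank may not hold.

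**Figure D2:**
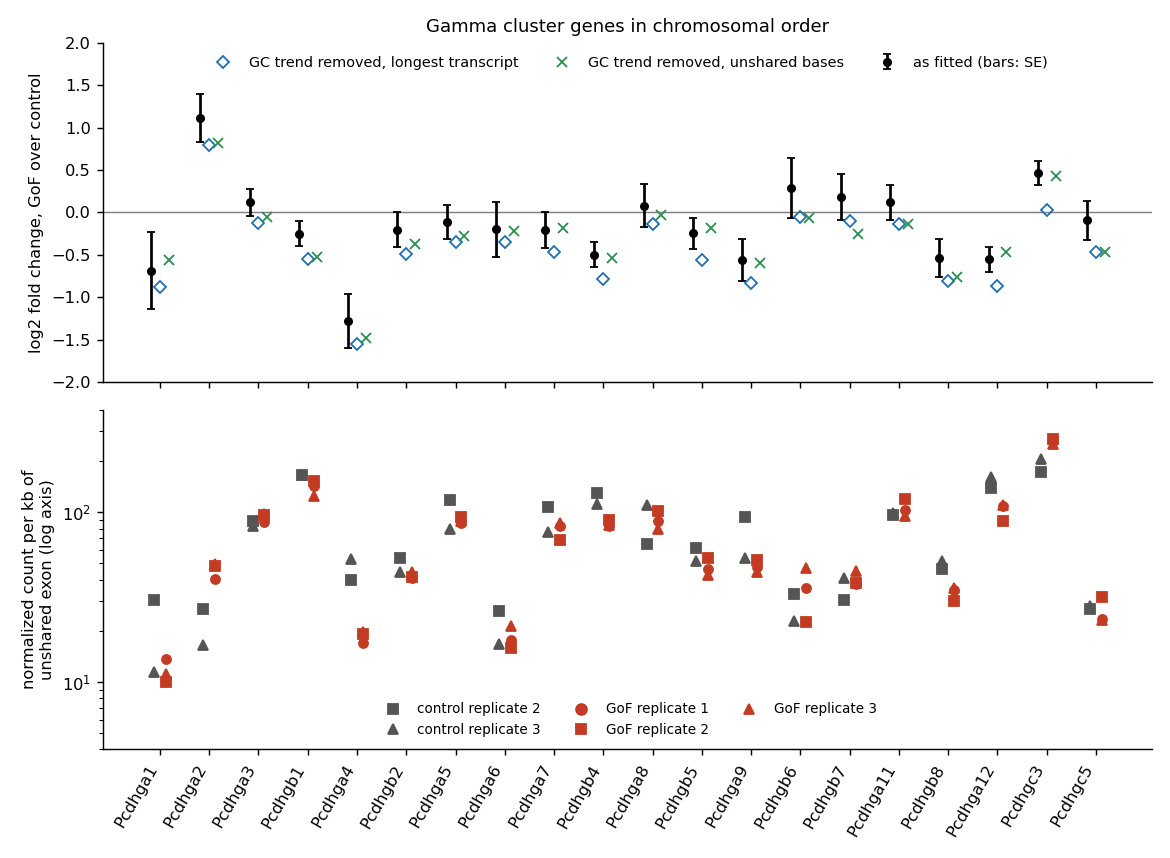
The 20 measured gamma genes in chromosomal order (x axis, evenly spaced). Top, log2 fold change of GoF over control as fitted (black, bars are SE) and after removal of the trend with GC content by the longest transcript (blue) or by unshared exonic bases (green); bottom, normalized count per kb of unshared exon in each library on a log axis. Pcdhga2 at 1.11 and Pcdhga4 at -1.28 are the extremes of the fitted changes. Pcdhgc3 has the highest level per kb of unshared exon in both groups, a rank that depends on how reads on shared bases were counted.

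As a share of all gamma counts in a library, the make-up of the cluster shifted by a few percentage points. Pcdhga12 took 13.4% and 16.6% in the controls and 12.3%, 9.89% and 12.4% in GoF. Pcdhgc3 took 7.32% and 9.39% against 13.1%, 13.1% and 12.5%, which made it the largest contributor in every GoF library. Pcdhga2 went from 1.62% and 1.06% to 2.85%, 3.33% and 3.51%, and Pcdhga4 from 1.45% and 2.10% to 0.734%, 0.804% and 0.844%. Shares within a library sum to a whole, so a higher share of 1 gene lowers those of others.

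**Figure D3:**
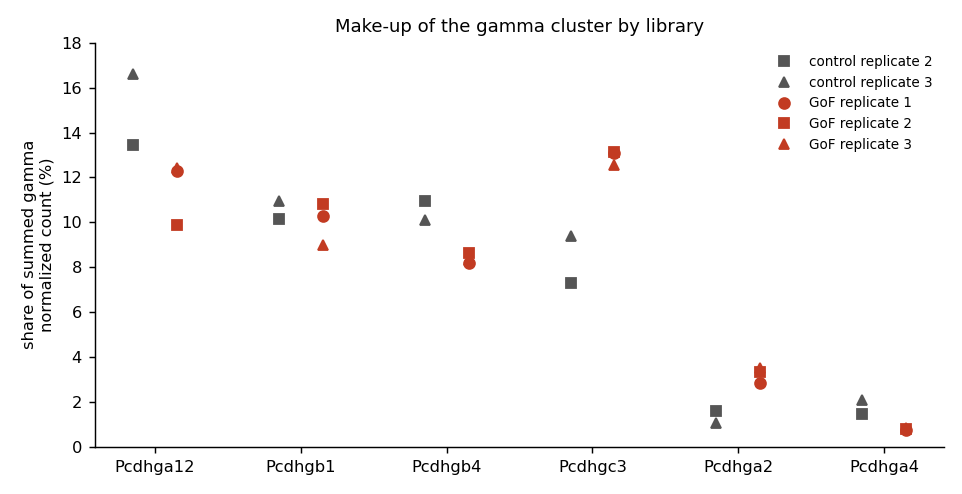
Share of the summed gamma normalized count taken by 6 genes (y axis, percent, from 0) in each library, with controls in grey and GoF in red. Pcdhgc3 lies between 12.5% and 13.1% in GoF and at 7.32% and 9.39% in the controls, and Pcdhga12 is lower in every GoF library than in either control.

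The alpha and beta genes in the table had low counts. Pcdhac2, a C-type gene at the end of the alpha array, was the 1 alpha gene in the table and had 30.5 and 31.2 normalized counts in the controls against 29.7, 30.7 and 12.9 in GoF, so that a single library was low (limma adjusted p = 0.567). Pcdhb19 had 28.1 and 44.9 counts in the controls against 12.3, 18.6 and 12.1 in GoF (log2 fold change -1.28, SE 0.50, limma adjusted p = 0.0996). Pcdhb22 had 27 and 22.5 against 42.0, 50.1 and 44.5 (log2 fold change 0.86, SE 0.34, limma adjusted p = 0.0995), and Pcdhb17 had 32.8 and 15 against 15.4, 17.8 and 12.1. The groups did not overlap for Pcdhb19 and Pcdhb22, which stand on opposite sides of 0. Limma, DESeq2 and edgeR each called 0 of these 4 genes, with 2, 1 and 2 at an unadjusted p under 0.05. By limma 6540 of all 16794 genes tested had an unadjusted p under 0.05. Each value of the 4 genes rests on 12 to 62 reads.

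The non-clustered genes covered a wider range of levels. Per kb of unshared exon the control means were highest for Pcdh18, 575 normalized counts, and Pcdh7, 537, followed by Pcdh19 at 75.2, Pcdh1 at 67.4 and Pcdh17 at 41.2. Pcdh8 (23), Pcdh12 (15.8), Pcdh9 (9.05), Pcdh11x (5.72), Pcdh10 (3.68) and Pcdh15 (2.65) were lower. Of the 11 genes, 2 fell and 9 did not pass. The fitted change was below 0 in 10 of the 11, with a median log2 fold change of -0.26. Among all genes tested 12.2% were called higher and 10.9% lower. Of those 16794 genes, 8478 had a fitted change below 0, and their median was -0.01. The 2 non-clustered genes that fell, Pcdh7 and Pcdh11x, belong to the delta-1 subfamily, whose cytoplasmic tails bind protein phosphatase 1. Every GoF library lay below both controls in 2 of 4 delta-1 genes and also in 2 of 5 delta-2 genes, against 27.6% of all genes tested.

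The 3 non-clustered promoters shown are those of Pcdh7, Pcdh18 and Pcdh19, the most abundant genes in which all GoF libraries lay below both controls. They are RefSeq sequences of build GRCm38.p6, from 250 bases before to 50 bases after the annotated start, with each CG dinucleotide in capitals. Pcdh1 and Pcdh12 were not searched, and Pcdh11x had no entry.

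Pcdh7 promoter, GRCm38.p6 chr5:57717831-57718130 (+ strand): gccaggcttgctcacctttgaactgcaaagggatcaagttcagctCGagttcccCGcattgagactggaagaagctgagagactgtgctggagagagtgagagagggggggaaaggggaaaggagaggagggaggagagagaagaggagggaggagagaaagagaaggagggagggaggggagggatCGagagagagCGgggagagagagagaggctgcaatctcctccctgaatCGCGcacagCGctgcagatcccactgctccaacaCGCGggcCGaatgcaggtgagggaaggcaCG
Pcdh18 promoter, GRCm38.p6 chr3:49757267-49757566 (- strand): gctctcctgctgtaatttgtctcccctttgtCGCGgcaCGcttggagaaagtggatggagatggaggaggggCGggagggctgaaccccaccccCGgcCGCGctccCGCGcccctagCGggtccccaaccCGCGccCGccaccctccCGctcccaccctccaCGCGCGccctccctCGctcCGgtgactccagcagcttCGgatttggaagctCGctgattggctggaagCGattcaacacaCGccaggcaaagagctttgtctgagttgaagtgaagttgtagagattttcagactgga
Pcdh19 promoter, GRCm38.p6 chrX:133688944-133689243 (- strand): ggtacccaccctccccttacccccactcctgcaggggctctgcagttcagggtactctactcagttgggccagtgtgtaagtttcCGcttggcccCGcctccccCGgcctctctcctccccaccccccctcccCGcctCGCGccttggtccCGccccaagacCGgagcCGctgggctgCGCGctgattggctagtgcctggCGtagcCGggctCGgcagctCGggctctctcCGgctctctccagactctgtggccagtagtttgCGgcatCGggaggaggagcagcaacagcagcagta

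The Pcdh7 window held 11 CG, that of Pcdh18 23 and that of Pcdh19 18, against a median of 7 over 32851 promoters of the same length, and a CG was present in 94.6% of these. A TATAAA on either strand, found in 13.6% of all promoters, was in none of the 3 windows. Among the 5 other non-clustered genes of the table that were searched, Pcdh8, Pcdh9, Pcdh10, Pcdh15 and Pcdh17, it was present for Pcdh8 and Pcdh15. Their windows held 14 CG for Pcdh8, 18 or 19 for Pcdh9 by annotated start, 24 for Pcdh10, 8 for Pcdh15 and 26 for Pcdh17. These counts are also above the median of 7, so a high CG count was not particular to the 3 genes shown. A match here is a string of letters and not a binding site.

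Pcdh7 lies on chromosome 5 (57717967 to 58133230) and had the highest mean count of the family. It had 5128 and 3858 normalized counts in the controls against 3184, 3177 and 3340 in GoF, with all GoF libraries below both controls. The fall was to 0.727 of the control level (log2 fold change -0.46, SE 0.12, limma adjusted p = 0.0314; 0.00328 to 0.635 over 18 alternatives). The controls themselves differed by 0.41 on the log2 scale. Of its annotated exonic bases 2235 are shared with 4932441J04Rik, a noncoding gene on the opposite strand that was not analysed here. Pcdh11x, on the X chromosome (120290259 to 120910619), had 62.1 and 97.3 counts in the controls against 27.7, 21.8 and 29.9 in GoF. It was the member with the lowest fold, at 0.346 of the control level (log2 fold change -1.53, SE 0.35, limma adjusted p = 0.0211; 0.00575 to 0.362 over 17 alternatives), from 27 to 78 reads per library. The other delta-1 genes did not pass. Pcdh9 had 51.6 and 71.1 against 45.1, 65.5 and 22.7, and Pcdh1, known from airway epithelium, had 489 and 698 against 736, 781 and 640 and was the 1 non-clustered gene with a fitted change above 0, which came to -0.40 with the GC trend removed.

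Limma, DESeq2 and edgeR called 0 of the 5 delta-2 genes (limma, 2 at an unadjusted p under 0.05), and all 5 fitted changes were below 0. Of all 16794 genes tested, 6540 had an unadjusted limma p under 0.05. Pcdh18 had 3041 and 3132 normalized counts in the controls against 2542, 2749 and 2434 in GoF (log2 fold change -0.26, SE 0.09, limma adjusted p = 0.0637; 0.0520 to 0.747 over 18 alternatives). Pcdh19, an N-cadherin partner whose human counterpart is mutated in an X-linked epilepsy, had 814 and 752 against 611, 594 and 668 (log2 fold change -0.33, SE 0.12, limma adjusted p = 0.0765; 0.0509 to 0.509). Both genes had GoF values below both controls, and both missed the threshold. Pcdh17 had 619 and 452 against 469, 427 and 426. Pcdh8 spread most between the controls, 38.7 and 150, with GoF in between at 73.8, 50.1 and 89.0, and Pcdh10 had 79.7 and 36.2 against 40.0, 76.8 and 38.0.

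Pcdh12 and Pcdh15 stand outside the delta subfamilies. Pcdh12, a protocadherin of endothelial cells, had 121 and 71.1 normalized counts in the controls against 72.8, 98.7 and 84.9 in GoF (limma adjusted p = 0.778). Of the 9 endothelial markers, 2 were called higher, 2 lower and 5 did not pass, where all genes gave 12.2% higher and 10.9% lower. After the GC correction 0 were higher and 1, Erg, was lower, where all genes gave 3.11% and 3.33%. Pcdh15, part of the tip link of inner ear hair cells, had 41.0 and 84.9 against 34.9, 42.9 and 44.5 (limma adjusted p = 0.329).

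**Figure D4:**
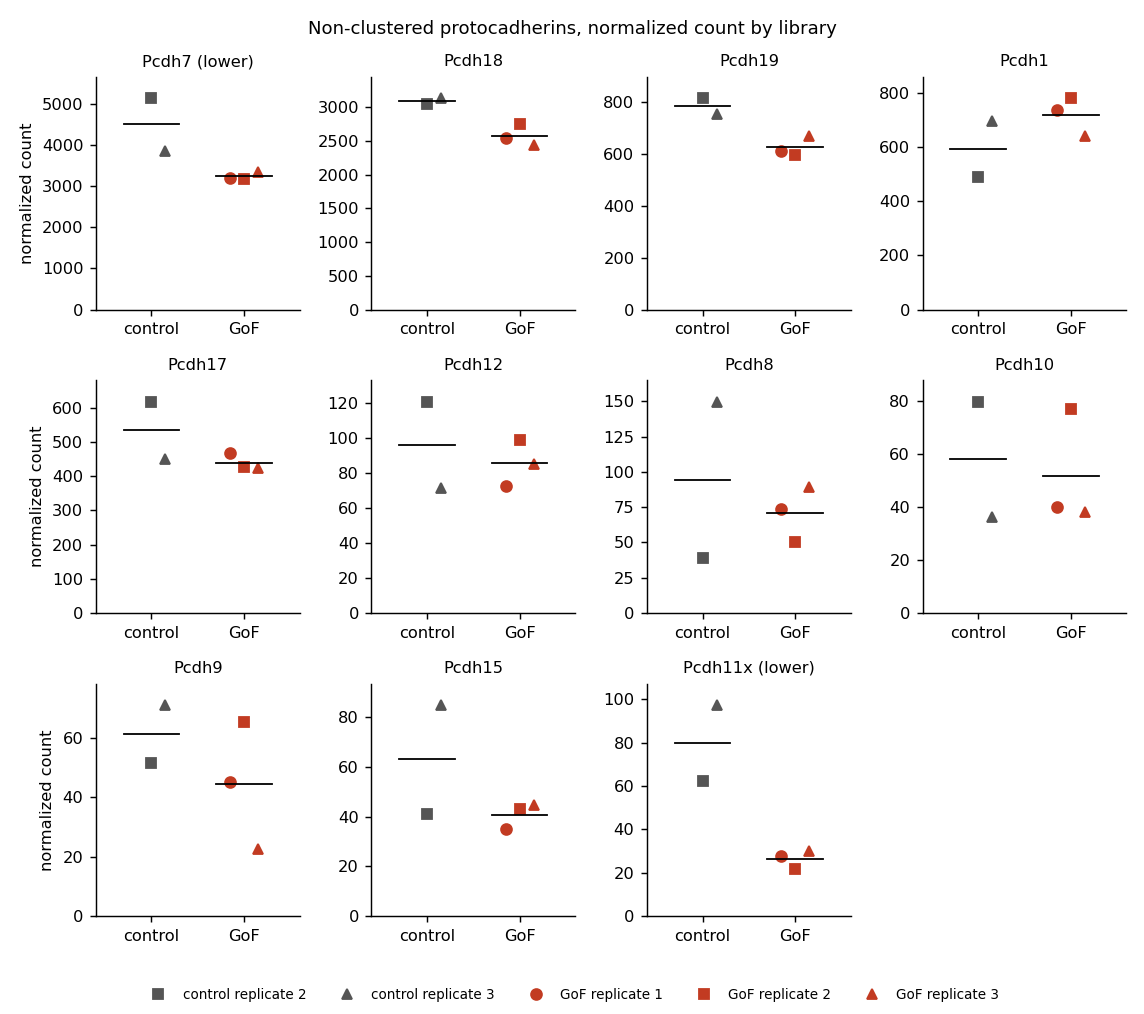
Normalized count (y axis, from 0) of the 11 non-clustered protocadherins in each library, ordered by mean count; each point is 1 library and black lines are group means, with calls given in the titles. GoF values lie below both controls for Pcdh7, Pcdh18, Pcdh19 and Pcdh11x, and the groups overlap in the other 7. Of all 16794 genes tested, 27.6% had every GoF library below both controls, and the groups overlapped in 7582.

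Fold changes in these libraries followed the GC content of the transcripts across all genes, from a median log2 fold change of -0.43 in the lowest of 10 GC bins to 0.65 in the highest. The non-clustered genes had a median GC content of 45.6% and the gamma genes one of 52.9%, against 48.2% for all genes tested, so the medians of the 2 classes lay on opposite sides of it. The bin that runs from 52.2% to 54.3% GC, in which most gamma genes fall, had a median of 0.30, while the gamma median was -0.20. With a lowess trend on the GC content of the longest transcript removed from each library, 18 of 20 gamma genes were below 0 with a median of -0.47, against 0.00 for all genes. Pcdhga4, Pcdhgb4 and Pcdhga12 passed again (limma adjusted p = 0.0331, 0.0272 and 0.0215), and no gamma gene was called higher. Pcdhgc3 came to 0.03 and Pcdhga2 to 0.80 (limma adjusted p = 0.915 and 0.132). Pcdh7 and Pcdh11x also missed the threshold (0.112 and 0.123). In that fit 3.33% of all genes were called lower and 3.11% higher, together 6.44%.

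The longest transcript of a gamma gene includes the constant exons, which all gamma genes share. Over unshared exonic bases the gamma genes ran from 46.0% to 55.3% GC, and from 51.0% to 55.4% over the longest transcripts. With the GC content of unshared bases in place of the transcript's for the protocadherins, which was tried after seeing the data, the gamma median was -0.27. Only Pcdhga4 was then called among the 35 (log2 fold change -1.49, SE 0.31, limma adjusted p = 0.0365). Pcdhga12 stood at -0.47 (adjusted p = 0.0892), Pcdhgb4 at -0.54 (0.0595), Pcdhgc3 at 0.43 (0.0874) and Pcdh7 at -0.08 (0.635) by limma. Of all genes 6.44% were called in the fit on the longest transcript, and the numbers called with unshared bases are given in the last section. Across the 20 gamma genes the Spearman correlation of the log2 fold change with GC content was 0.49 for unshared bases and 0.23 for the longest transcript, a description of genes that share libraries and constant exons.

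**Figure D5:**
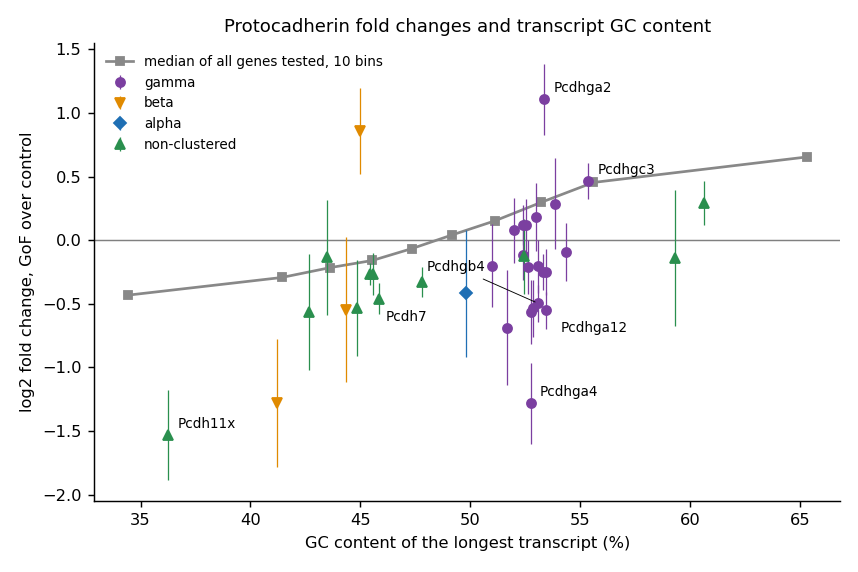
Log2 fold change of GoF over control (y axis, bars are SE) against the GC content of the longest transcript (x axis, percent) for the 35 protocadherins, with the median of all genes tested in 10 GC bins in grey. Most gamma genes lie below the grey line between 52.2% and 54.3% GC, Pcdhga2 lies above it and Pcdhgc3 on it.

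Of 2 gene models in the table that overlap gamma exons, 1 passed the test. Gm37165, which overlaps Pcdhga7 and Pcdhga8, did not (limma adjusted p = 0.226). Gm26672, a noncoding gene on the opposite strand (37746559 to 37768242), overlaps exons of Pcdhgb7, Pcdhga11 and Pcdhga12. It fell from 324 and 352 normalized counts to 200, 227 and 226 (log2 fold change -0.63, SE 0.16, limma adjusted p = 0.0267, 0.0417 after the GC correction, and 0.161 without GoF replicate 1). Pcdhga12 fell, while Pcdhgb7 (55.1 and 74.9 against 68.7, 69.6 and 81.7) and Pcdhga11 (121 and 124 against 129, 150 and 120) did not pass. The strand setting of the counting is not given in the sources used here, so reads of these partners cannot be told apart. Of the 26 genes in the table that lie within 500000 bases of the 3 arrays, protocadherins left out, 3 rose, 2 fell, Gm26672 among them, and 21 did not pass. Over all genes tested 12.2% were called higher and 10.9% lower. Slc35a4, a member of the nucleotide sugar transporter family, rose 1.85-fold, Hdac3, a histone deacetylase, 1.52-fold, and Arap3, a regulator of small GTPases, 1.49-fold. With the GC trend removed the call for Hdac3 held and those for Slc35a4 and Arap3 were lost (limma adjusted p = 0.0225, 0.0981 and 0.936), and without GoF replicate 1 only that for Slc35a4 held (0.0173).

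Transcription of the arrays depends on looping by CTCF and cohesin and on silencing by DNA methylation and SMCHD1. Of 20 such regulators, 3 rose, 8 fell and 9 did not pass, with a median log2 fold change of -0.18 against -0.01 over all genes, of which 12.2% were called higher and 10.9% lower. The median GC content of the list was 44.0%, in a bin where 256 of 1626 genes were called lower and 23 higher. Smc3, a core cohesin subunit, fell to 0.686 of the control level, Wapl, the cohesin release factor, to 0.695, Nipbl, the cohesin loader, to 0.699 and Smchd1 to 0.735. Each of these 4 had GoF libraries below both controls and passed also without GoF replicate 1 (limma adjusted p = 0.0143, 0.0173, 0.0203 and 0.0373). After the GC correction 1 regulator was called higher and 2 lower, where all genes gave 3.11% and 3.33%, and the median of the list was -0.01. The call for Smc3 then held (limma adjusted p = 0.0405), and those for Wapl, Nipbl and Smchd1 were lost (0.136, 0.0545 and 0.139). Ctcf had 5624 and 5130 counts in the controls against 5314, 6217 and 4494 in GoF and did not pass, and neither did Rad21.

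Of 20 genes whose products act with protocadherins at the membrane, 5 rose, 2 fell and 13 did not pass. Over all genes tested 12.2% were called higher and 10.9% lower. After the GC correction 2 of the 20 were called higher and 1 lower, where all genes gave 3.11% and 3.33%. Ppp1ca, the alpha catalytic subunit of protein phosphatase 1, had 297 and 263 normalized counts in the controls against 944, 881 and 800 in GoF. It rose 3.12-fold (log2 fold change 1.64, SE 0.13, limma adjusted p = 0.00164, and 0.00878 after the GC correction). Ret, a receptor tyrosine kinase that phosphorylates clustered protocadherins, rose 1.96-fold and Taok2, a kinase that acts with Pcdh8, 1.6-fold. Nckap1, a subunit of the WAVE actin complex that protocadherin tails recruit, fell to 0.751 of the control level. The call for Taok2 was lost with the GC trend removed (limma adjusted p = 0.409), and those for Ret and Nckap1 held (0.0243 and 0.0408).

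Other members of the cadherin superfamily also went both ways. For the 2 lists that follow, the shares over all genes tested were 12.2% called higher and 10.9% lower. Of 10 Fat, Dachsous and Celsr genes, which set tissue polarity, 1 rose and 3 fell. Fat3 fell to 0.624, Fat4 to 0.732 and Fat1 to 0.841 of the control level, while Dchs1 rose 1.52-fold, a call that the GC correction ended (limma adjusted p = 0.956). After that correction 0 of the 10 were called higher and 3 lower, and all 10 fitted changes were below 0. All genes then gave 3.11% higher and 3.33% lower. Without GoF replicate 1 the call for Fat3 held and those for Fat4, Fat1 and Dchs1 were lost (limma adjusted p = 0.0148, 0.0666, 0.197 and 0.0587). Of 15 classical and type II cadherins in the table (of 19), 3 rose and 2 fell. Cdh3, P-cadherin, rose 2.64-fold and Cdh5, the endothelial cadherin, 1.53-fold, while Cdh7 fell to 0.229 and Cdh11, a cadherin of mesenchyme, to 0.745 of the control level. With the GC trend removed the calls for Cdh3 and Cdh7 held (limma adjusted p = 0.00378 and 0.00827) and those for Cdh5 and Cdh11 were lost (0.0737 and 0.0742).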

How the data were processed

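Per the submitters' processing notes, the tools were STAR 2.5.2 and bcl2fastq 2.17.1.14, with DESeq2, R and HTSeq, and the build was mm10. The sources used here give no annotation, strand setting or filter. Per the labels' protocols, cDNA was amplified from total RNA before library preparation. Per the file headers, the authors' deposited signal is a normalized count per gene and library. Within each library all values were whole multiples of a single step (100% within 0.001), which gave back the read counts the authors divided. The deposited mean, log2 fold change, score and p-value columns are the authors' own comparison.

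The main test was limma 3.58.1 in R 4.3.3 (trend and robust) on log2(normalized count + 1) of the 16794 genes whose mean reached 10. Recovered counts were tested with DESeq2 1.42.0 and edgeR 4.0.16. The fits were tested on simulated counts. GC content came from the longest GENCODE M21 transcript (96.9% of genes matched by symbol), and the trend was removed with a lowess span of 0.3. Unshared bases are exonic bases in no other gene of either strand. The design allowed for raw counts or normalized values, and the second applied. Control replicate 1 was not analysed here. Members, lists, tests and the naming rule were chosen with earlier results of these data known. The rule names Hoxb1, protocadherin genes and up to 4 called members of each other list with the lowest adjusted p. Ctcf, Rad21 and Gm37165 were named after their values were seen. No counting intervals were given: PCR copies cannot be told from separate molecules here.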

Additional observations from a re-analysis of the deposited data

How the results depend on the processing

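Limits. With 2 controls and 3 GoF libraries, precision rests on few samples, and without 1 control the other is assumed to vary like the GoF libraries. Over 18 alternatives none of the 7 called protocadherins changed direction, while 13 of the 28 others did under at least 1. In each of the 7 the GoF and control values did not overlap, so leaving out a library could not reverse their direction. Reads on shared gamma exons and on antisense partners could not be assigned anew, and the alpha and beta values rest on 12 to 62 reads each. The cause of the changes below was not tested unless named.

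The numbers of all genes called higher and of all genes called lower were 506 and 542 with the GC trend removed, 501 and 536 with the unshared GC content (added after seeing the data), 765 and 606 with the replicate block, 73 and 90 with block and GC together, and 52 and 66 with the GC correction and no GoF replicate 1. With 1 library left out they ran from 678 to 2734 and from 554 to 2552. Deviations of samples with the same number were hardly correlated (-0.04 for number 2 and -0.04 for number 3, over 9082 genes), so the numbers were not taken as pairs. The 2 controls deviate equally and oppositely from their mean, so these are nearly 1 value and not 2 separate checks. The block gives GoF replicate 1 a level of its own, so without GC correction its fold changes equal those without that library. Gamma genes called higher numbered 1 with quantile normalization, 0 with the GC trend removed by either GC content, 0 with the block, 0 with block and GC, 0 without GoF replicate 1 and GC trend, and 0 to 1 with 1 library left out. Gamma genes called lower numbered 1 with the unshared GC content, 0 with the block with or without GC and without GoF replicate 1 and GC trend, and 0 to 3 with 1 library left out. Non-clustered genes called lower numbered 1 with a mean of at least 50, where Pcdh11x had too few counts to be tested, 0 with the GC trend removed by either GC content, 0 with the block with or without GC and without GoF replicate 1 and GC trend, and 0 to 2 with 1 library left out. Non-clustered genes called higher ranged from 0 to 1.

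Changes of sign concerned genes not called, apart from Dchs1. In the order GC trend removed, block with GC, GoF replicate 1 left out with GC, and unshared GC content, the log2 fold change was -0.12, -0.076, -0.074 and -0.057 for Pcdhga3, -0.14, -0.13, -0.13 and -0.028 for Pcdhga8, -0.053, -0.099, -0.097 and -0.065 for Pcdhgb6, -0.10, -0.054, -0.052 and -0.26 for Pcdhgb7, -0.14, -0.12, -0.11 and -0.14 for Pcdhga11, -0.40, -0.42, -0.41 and -0.34 for Pcdh1, 0.087, 0.23, 0.23 and 0.23 for Pcdh10, and -0.010, -0.032, -0.030 and -0.010 for Dchs1. Quantile normalization gave -0.023 for Pcdhga8 and the block 0.0085 for Pcdh10. With 1 library left out the log2 fold change ran from -1.38 to 0.0092 for Pcdhga1, -0.39 to 0.17 for Pcdhga5, -0.51 to 0.11 for Pcdhga6, -0.46 to 0.040 for Pcdhga7, -0.30 to 0.45 for Pcdhga8, -0.034 to 0.40 for Pcdhgb7, -1.10 to 0.82 for Pcdh8, -0.50 to 0.25 for Pcdh12 and -0.69 to 0.43 for Pcdh10.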
